A study of Mus musculus with 56 samples.

Results

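The genes described here make ribosomes. They were taken from a mouse brain tumour series of 56 expression arrays as the probes whose only gene symbol named an RNA polymerase I subunit (Polr1a to Polr1h), a protein of the Nop, Noc, Utp or Rrp families, a nucleolar GTPase of the Gnl2 and Gnl3 kind, or one of Wdr12, Ddx21, Ncl, Npm1, Pes1, Bop1, Nolc1 and Heatr1. The rule found 44 probes for 42 genes, of 15224 genes that had a probe with 1 symbol. It matches gene symbols only, but it was chosen with earlier results of these data known. Where a gene had several probes, the probe of highest mean stood for it. All 42 genes had a value in every array, and all 42 lay above the 25th percentile of the table (6.30 on the log2 scale) in all 56 arrays.

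Tumours came from GTML mice, in which the promoter of a glial glutamate transporter (Glt1) drives a tetracycline-controlled human MYCN transgene in the brain (32 medulloblastomas), and they were set against 5 normal cerebella of GTML mice at postnatal day 7 that had received doxycycline (P7 cerebella), which switches that transgene off. A cell culture from a GTML tumour gave 1 further array. In the transplant experiment, neural stem cells (NSCs) of embryonic day 16 cerebellum (E16C), newborn cerebellum (P0C) or newborn forebrain (P0F) had been transduced with mutation-stabilised N-myc(T58A) and grew 3 orthotopic tumours per origin, and their comparison samples were 1 culture of tumour cells per origin, N-myc NSCs (1 array of E16C and 1 of P0C origin) and GFP-transduced NSCs (1 array each of E16C and P0F origin, and a sorted and an unsorted array of P0C origin). The titles call the P0F source of cells a glioma and the others medulloblastoma. All mice were of the FVB/N background. The 3 origins have 3 tumours each, the labels do not say whether those came from separate NSC cultures, and p-values measure the spread between these samples only. The sorted and unsorted P0C GFP arrays may be the same culture, and the other cultures have no replicate. GTML tumours and P7 cerebella were labelled with another RNA labelling protocol than the transplanted tumours and cells, so protocol and tumour model cannot be told apart wherever the 2 sets meet.

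Ribosome production starts in the nucleolus, where RNA polymerase I copies ribosomal DNA into a long precursor RNA. Small nucleolar ribonucleoproteins (snoRNPs) modify that precursor, the small subunit processome and its partners cut it and fold the future small subunit, and a separate chain of GTPases, helicases and scaffold proteins matures the large subunit. MYC family proteins are known to raise transcription of many of these genes, and growing tumours and stem cells are known for large nucleoli. Of the 42 genes, 5 encode polymerase I subunits, 4 snoRNP proteins, 16 small subunit factors, 14 large subunit factors and 3 abundant nucleolar proteins. All values below are log2 array intensities as deposited, differences are log2 differences, and a call is an adjusted p (Benjamini-Hochberg over all genes tested) under 0.05 in limma.

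4 GTML tumours stood apart from the other 28 before any result is given. The mean log2 level of 6 photoreceptor-type genes that mark this tumour model (Otx2, Crx, Rbp3, Sag, Impg2 and Gnb3) was 7.12, 8.75, 10.18 and 7.38 in GTML tumours 20, 22, 30 and 31 and 11.64 to 12.91 in the other 28, against 6.83 to 6.88 in P7 cerebella. A list of mature neuron genes averaged 11.67, 6.89, 11.75 and 7.31 in the same 4 tumours and 7.25 to 8.53 in the other 28, against 10.85 to 11.25 in P7 cerebella. A list of cell cycle genes averaged 7.02, 7.32, 9.09 and 10.71 in the 4 and 9.86 to 11.03 in the 28, against 9.87 to 10.20 in P7 cerebella. Results on GTML tumours are therefore given with and without these 4. Among the GFP NSCs, the P0F array carried the photoreceptor-type genes at 9.60, where the other 3 arrays lay between 6.56 and 6.75. The titles and cell type tags of 3 arrays of E16C origin disagree, and groups follow the titles. In whole tissue, fewer cells of a type and less RNA per cell cannot be told apart.

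Most of the ribosome genes rose in the tumours of GTML mice relative to normal P7 cerebella. Over all 32 tumours and 5 cerebella, 36 of 42 rose and 1, Gnl3l, fell, where 32.9% of the 12275 genes tested rose and 24.8% fell. The median difference was 0.86 over the 42 genes and 0.10 over all genes tested. An at least 2-fold rise that passed the test was seen in 12 of the 42, against 4.75% of all genes. Without GTML tumours 20, 22, 30 and 31, 38 of 42 rose and 1 fell, the median difference was 0.96, and 43.3% of all genes rose and 31.1% fell. In those 28 tumours, 31 of 42 genes had every tumour above every P7 cerebellum, which 17.7% of all genes did. Over all 32, 2 of 42 did, Polr1b and Rrp12, against 4.22% of all genes.

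**Figure D1:**
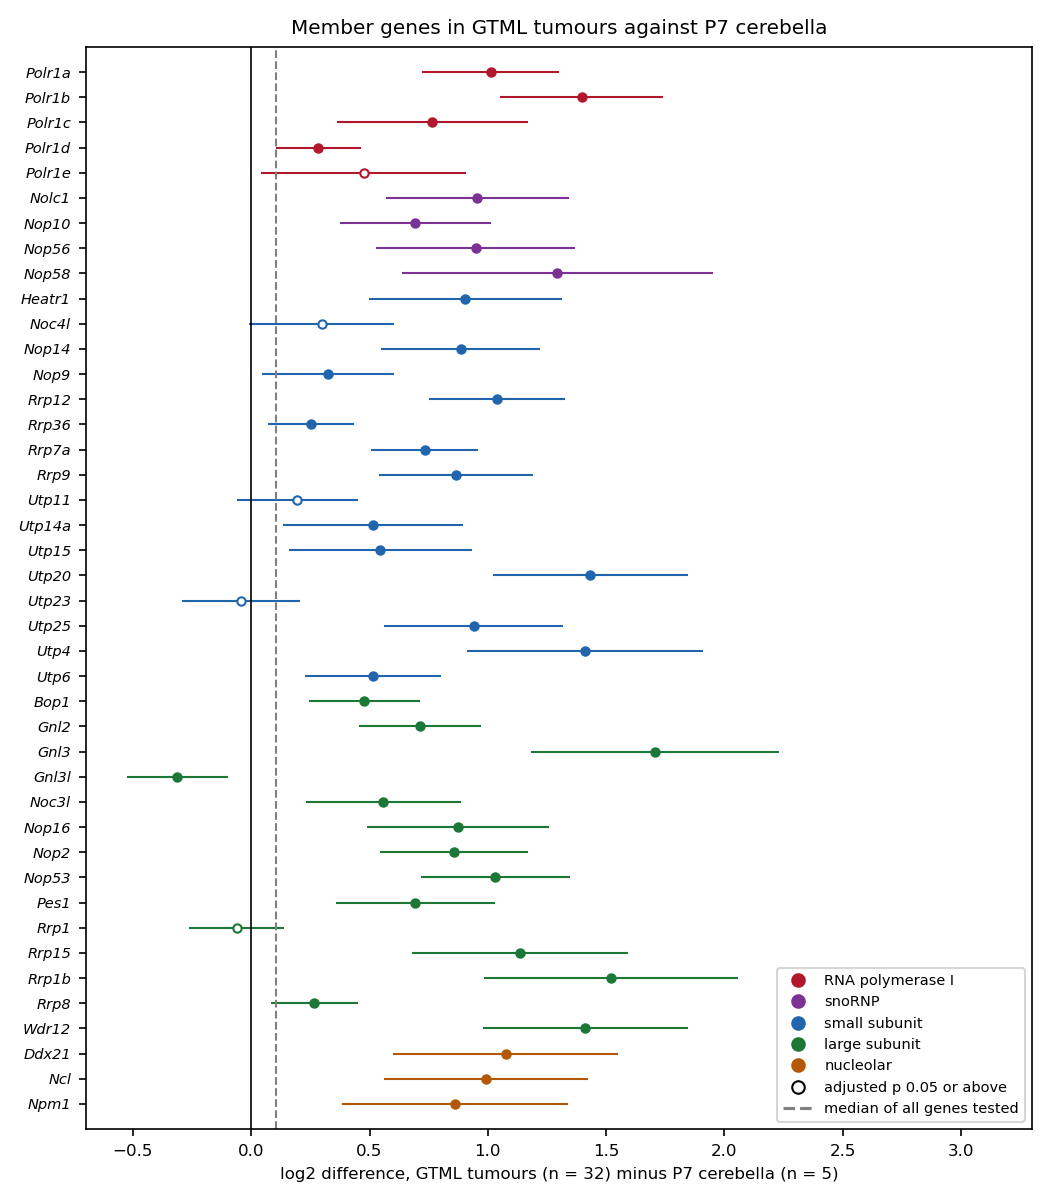
Log2 difference between 32 GTML tumours and 5 P7 cerebella for each of the 42 genes (points; horizontal bars are 2 standard errors to each side; open points did not pass the test), ordered and coloured by role, with the median of all genes tested as a dashed line. Points lie right of the dashed line for most genes of every role, from 1.71 for Gnl3 down to -0.31 for Gnl3l.

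The RNA polymerase I subunits rose in 4 of 5 cases. Polr1b, which builds the catalytic centre together with Polr1a, ran from 7.84 over a median of 9.05 to 9.50 in GTML tumours, against 7.60, 7.71, 7.51, 7.50 and 7.55 in P7 cerebella. All 32 tumours were above all 5 cerebella, including the 4 that stood apart, and the difference was 1.40 ± 0.17 (SE; adjusted p = 2.85e-08 in limma), a 2.63-fold rise. Polr1a, the largest subunit, ran from 8.24 over 9.43 to 9.88 in tumours, against 8.21, 8.43, 8.38, 8.40 and 8.36 in cerebella, and 30 of 32 tumours exceeded the highest cerebellum (difference 1.01 ± 0.14, adjusted p = 4.01e-07 in limma). Polr1c and Polr1d are shared with RNA polymerase III. Polr1c was 0.77 ± 0.20 higher (adjusted p = 0.00165) and Polr1d 0.28 ± 0.09 higher (adjusted p = 0.0078, both in limma). Polr1e, part of the subcomplex that holds initiation factors, differed by 0.47 ± 0.22 and missed the threshold over all 32 tumours (adjusted p = 0.0578), and was 0.61 higher over the 28 (adjusted p = 2.47e-06, both in limma). Both Polr1c probes and both Polr1d probes moved together over the 56 arrays (Pearson r = 0.982 and 0.945).

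All 4 snoRNP genes rose. Nop58, a core protein of the box C/D particles that methylate ribosomal RNA, ran from 8.89 over 11.82 to 12.17 in GTML tumours, against 10.18, 10.34, 10.43, 10.06 and 10.33 in P7 cerebella. It had 29 tumours above every cerebellum, and its lowest tumours were among the 4 that stood apart (difference 1.29 ± 0.33, adjusted p = 0.00114 in limma). Its partner Nop56 rose by 0.95, the snoRNP chaperone Nolc1 by 0.96 and Nop10, of the H/ACA particles that make pseudouridine, by 0.69. Nop56 ran from 10.57 over 12.44 to 12.62 in tumours, against 11.20 to 11.42 in cerebella, and had among the narrowest spreads of the 42 genes in the 28 tumours (SD 0.10, n = 28).

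Of the 16 small subunit genes, 13 rose, none fell in this test and Utp11, Utp23 and Noc4l were not called. Utp20, a very large scaffold protein of pre-ribosomes, ran from 7.62 over 9.45 to 9.93 in GTML tumours, against 7.87, 8.04, 7.96, 7.88 and 7.87 in P7 cerebella. In 31 of 32 tumours it exceeded every cerebellum, and the difference was 1.43 ± 0.21 (adjusted p = 4.85e-07 in limma). Utp4, of the subcomplex that binds the nascent precursor first, was 1.41 ± 0.25 higher (adjusted p = 1.37e-05 in limma). Rrp12, an export and maturation factor, ran from 8.39 over 9.20 to 9.84 in tumours, against 7.95, 8.11, 8.23, 8.28 and 8.21 in cerebella, with no overlap (difference 1.04 ± 0.14, adjusted p = 2.48e-07 in limma). Heatr1, the mammalian counterpart of yeast Utp10, had 29 tumours above every cerebellum. It ran from 7.73 over 9.09 to 9.89 in tumours, against 8.09, 8.27, 8.07, 8.06 and 8.07 in cerebella (difference 0.91 ± 0.20, adjusted p = 3.05e-04 in limma). Utp23 had a difference of -0.04 (adjusted p = 0.781) and Utp11 of 0.20 (adjusted p = 0.193), both in limma over 32 tumours. Noc4l differed by 0.30 over the 32 (adjusted p = 0.0947) and was 0.37 higher over the 28 (adjusted p = 0.00119, both in limma).

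The large subunit genes held both the highest and the lowest difference. Gnl3 (nucleostemin), a nucleolar GTPase known from stem cells and tumours, ran from 9.14 over 11.58 to 11.95 in GTML tumours, against 9.57, 9.68, 9.72, 9.64 and 9.76 in P7 cerebella. All tumours but 1 exceeded every cerebellum, and the difference was 1.71 ± 0.26 (adjusted p = 1.45e-06 in limma), a 3.27-fold rise. Its close relative Gnl3l went the other way, from 9.52 over 10.30 to 10.81 in tumours, against 10.66, 10.49, 10.62, 10.77 and 10.56 in cerebella. Only 1 tumour exceeded the highest cerebellum (difference -0.31 ± 0.11, adjusted p = 0.0126 in limma), and the call was lost when arrays were centred on their medians (difference -0.17), with a replicate block over tumours and cerebella 1 to 5 (-0.21) or without P7 cerebellum 4 (-0.28).

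Pes1, Bop1 and Wdr12 form a complex that is needed for processing of the large subunit RNA, and its genes rose by unequal amounts. Wdr12 ran from 9.41 over 11.14 to 11.51 in GTML tumours, against 9.53, 9.72, 9.63, 9.57 and 9.58 in P7 cerebella (difference 1.41 ± 0.22, adjusted p = 1.43e-06 in limma). Pes1 was 0.69 ± 0.17 higher (adjusted p = 7.01e-04) and Bop1 0.48 ± 0.12 higher (adjusted p = 8.02e-04, both in limma). For each of the 3, at least 29 of 32 tumours were above every cerebellum. Rrp1b, a nucleolar protein that binds a protein phosphatase, rose by 1.52 ± 0.27 (adjusted p = 1.38e-05 in limma), while Rrp1, its paralog, differed by -0.06 (adjusted p = 0.616). Rrp15 rose by 1.14, Nop53 by 1.03 and the ribosomal RNA methyltransferases Nop2 and Rrp8 by 0.86 and 0.27.

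The nucleolar proteins Ncl, Npm1 and Ddx21 all rose. Nucleolin (Ncl), which binds the precursor RNA and nucleolar chromatin, ran from 10.88 over 12.80 to 13.01 in GTML tumours, against 11.60, 11.63, 11.83, 11.52 and 11.61 in P7 cerebella (difference 0.99 ± 0.22, adjusted p = 2.13e-04 in limma). Nucleophosmin (Npm1), a scaffold of the outer nucleolus, ran from 10.63 over 12.79 to 13.02 in tumours, against 11.75, 11.79, 11.98, 11.59 and 11.78 in cerebella (difference 0.86 ± 0.24, adjusted p = 0.00258 in limma). The RNA helicase Ddx21 was 1.07 ± 0.24 higher (adjusted p = 2.63e-04 in limma). In each of the 3, the tumours below the cerebella belonged to the 4 that stood apart.

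**Figure D2:**
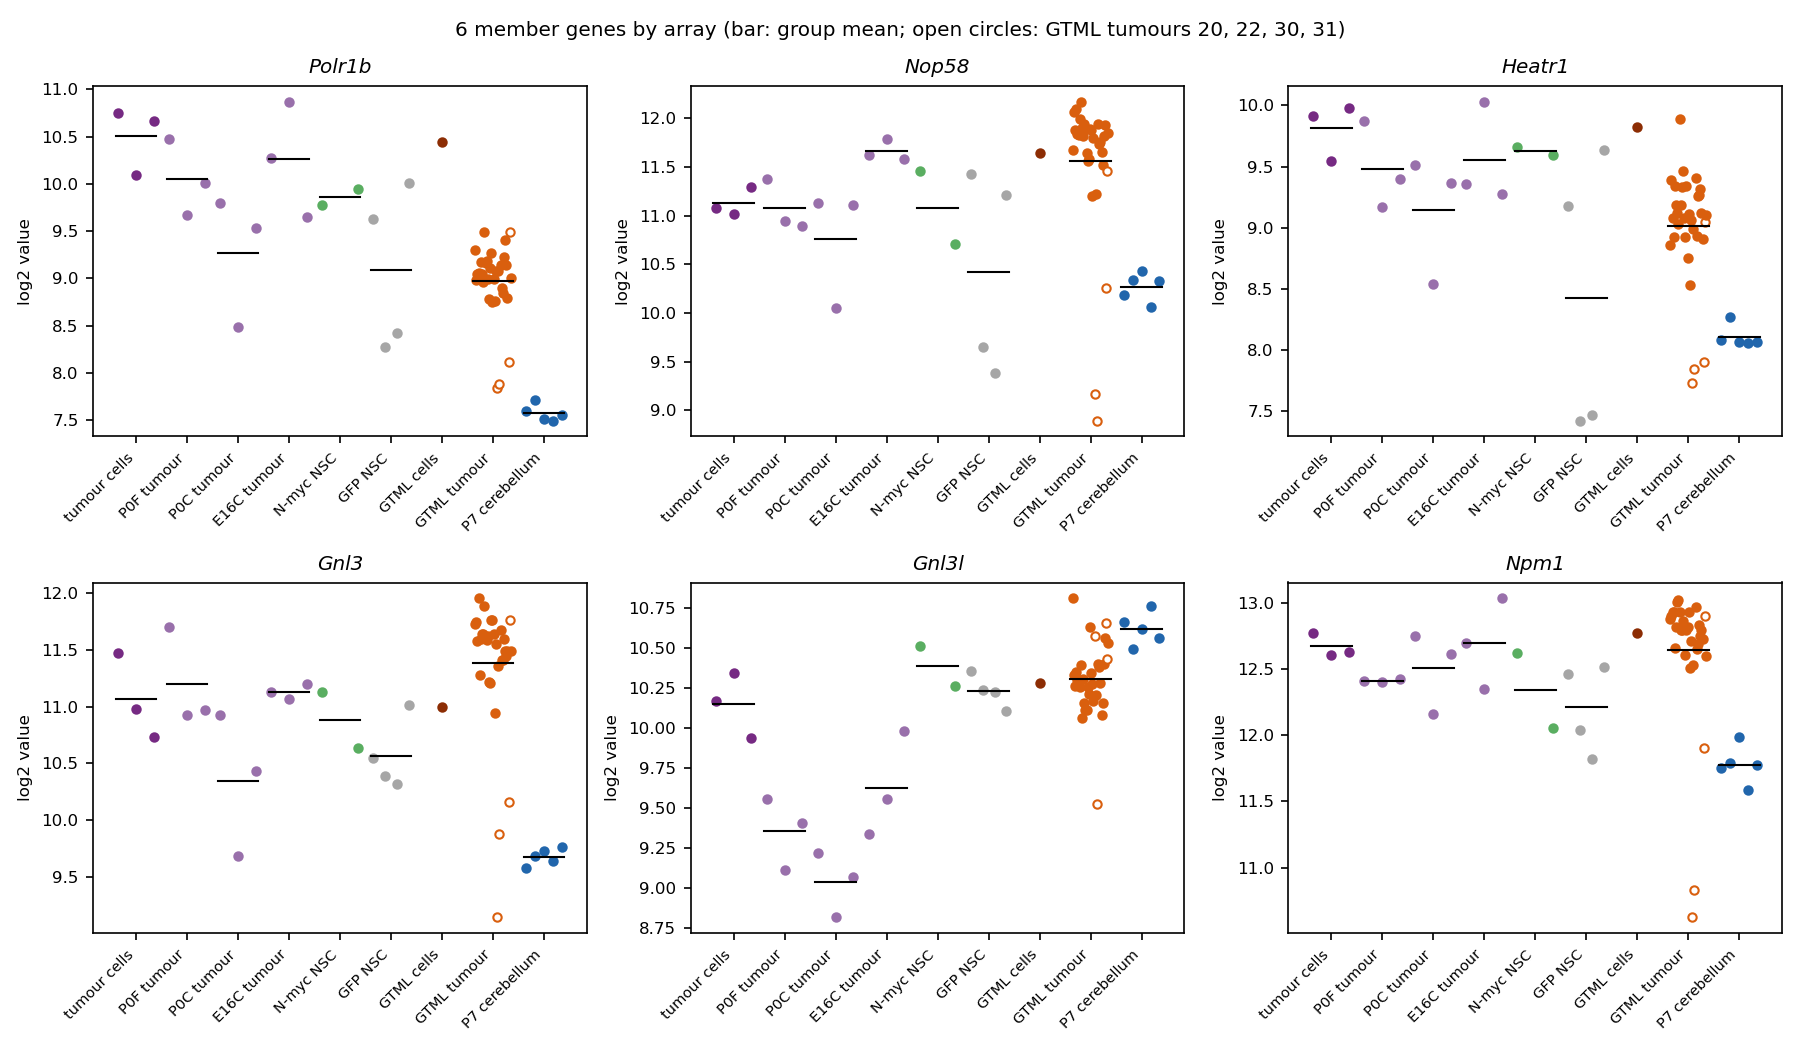
Log2 values of 6 genes in every array, by group (points; black bars are group means; open circles are GTML tumours 20, 22, 30 and 31). Polr1b is above all 5 P7 cerebella in all 32 GTML tumours, Gnl3l is lower in all 9 orthotopic tumours than in the 4 GFP NSC arrays, and the 2 P0C arrays are the lowest GFP NSC arrays for Heatr1 and Nop58.

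The 4 tumours set apart did not share a level of these genes. Averaged over the 42 genes, GTML tumours 20, 22 and 30 had 8.93, 9.15 and 9.24 and GTML tumour 31 had 10.21, where the other 28 ran from 9.74 to 10.41, against 9.21 to 9.35 in P7 cerebella. GTML tumour 20 was below all 28 for 39 of 42 genes, tumour 22 for 36 and tumour 30 for 39, but tumour 31 for 2. Set against the range of the cerebella, 31 of 42 genes lay below it in tumour 20, 20 in tumour 22 and 15 in tumour 30. In tumour 31, 40 of 42 lay above it. For none of these counts was the share over all genes taken, so they cannot be set against it. Across the 4, the tumours lowest in the ribosome genes were thus also the 3 with cell cycle lists of 7.02, 7.32 and 9.09.

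Of 35 further small subunit factors 27 rose (median 0.59), among them the RNA acetyltransferase Nat10 by 1.33 and Pdcd11 by 1.08. Of 40 further large subunit factors 35 rose (median 0.67), led by Ppan at 1.35 and the AAA ATPase Mdn1 at 1.25. All 7 measured genes of the remaining snoRNP list rose (median 0.60), with Shq1, an H/ACA assembly factor, at 1.06 and Nhp2 at 1.03. The polymerase I transcription machinery was less even, with 6 of 10 higher and 1 lower (median 0.46). Tcof1, the treacle protein that recruits the polymerase, rose by 1.23 (adjusted p = 8.13e-08) and Ddx5 fell by 0.19 (adjusted p = 0.0495, both in limma), while Sirt7 had a difference of -0.18 and was not called. RNA polymerase III genes rose in 8 of 17 cases (median 0.23; Polr3d 0.94, Polr3e 0.82), and exosome genes, which degrade RNA processing remnants, rose in 4 of 12 with 1 lower (C1d, -0.55), a share near the 32.9% of all genes that rose. Of 16 metabolic genes known as MYC targets 12 rose (median 0.79), the folate enzymes Shmt1 and Mthfd2 by 1.91 and 1.47. No list holds a gene of the 42.

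Markers of other cell types differed between the same groups. Mature neuron markers fell in 9 of 11 cases, astrocyte markers in 7 of 7, oligodendrocyte markers in 7 of 7 and endothelial markers in 4 of 8, and microglia markers rose in 7 of 10 with 1 lower. The 6 photoreceptor-type genes of the tumour model all rose, and 7 of 8 cerebellum markers fell. Calb1 and Pcp2 stand on both the cerebellum and the mature neuron list. Mean neuron marker levels were 7.25 to 8.53 in the 28 GTML tumours and 10.85 to 11.25 in P7 cerebella, mean astrocyte levels 6.90 to 9.67 and 11.16 to 11.34, mean oligodendrocyte levels 6.80 to 9.25 and 9.03 to 10.10. Endothelial levels were 6.65 to 7.84 in the 28 tumours and 8.34 to 8.52 in the cerebella, and microglia levels 7.71 to 9.65 and 7.80 to 7.98. The array values have no true 0, so an absent marker cannot be named. Their part in the rise of the ribosome genes was not tested. Of 18 cell cycle genes none was called over 32 tumours in limma (1 at an unadjusted p under 0.05, where 61.8% of all genes were; median 0.34) and 16 rose over the 28 (median 0.64). Mki67, the proliferation marker, differed by 0.18 (adjusted p = 0.764 in limma). The mouse Mycn probe was lower in tumours, with a mean of 8.68 ± 0.78 (SD, n = 32) against 10.75 ± 0.14 (SD, n = 5) in P7 cerebella (adjusted p = 5.64e-06 in limma), and how far that probe reads the human MYCN transgene is unknown here.

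E-boxes with the letters CACGTG, the sequence that MYC proteins bind best, were looked for in the 250 bases before the annotated start of each gene. RefSeq promoters on GRCm38.p6 were at hand for 33 of the 42 genes and not for Bop1, Gnl2, Gnl3l, Nop53, Npm1, Rrp12, Utp11, Utp23 and Utp6. The letters stood in 3 of 33 genes (9.1%), against 6.9% of 27025 genes in the same table, and since the motif is palindromic both strands give the same matches. They are shown because they are the only ribosome gene windows with a match, with the motif in capitals and the strand of the gene.
Nop2, chr6:125131793-125131858, + strand, motif from base -60: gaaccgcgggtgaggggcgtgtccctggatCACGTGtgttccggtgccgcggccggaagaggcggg
Rrp7a, chr15:83122974-83123039, - strand, motif from base -208: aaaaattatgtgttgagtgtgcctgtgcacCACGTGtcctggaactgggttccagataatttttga
Utp25, chr1:193130193-193130233, - strand, motif from base -245: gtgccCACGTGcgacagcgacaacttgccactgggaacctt
Relative to P7 cerebella, GTML tumours had 0.86 ± 0.16 more Nop2, 0.73 ± 0.11 more Rrp7a and 0.94 ± 0.19 more Utp25 on the log2 scale (all called in limma). Polr1b, Gnl3 and Utp20, with differences of 1.40, 1.71 and 1.43, had no such letters in their windows. A match is a run of letters, not a measured binding site.

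Among the 28 GTML tumours the ribosome genes varied together. Over the 861 pairs of the 42 genes the median Pearson r was 0.385, and 91.6% of pairs were above 0, where the median over all pairs of genes tested was -0.002. The snoRNP genes had the highest median (0.48, 6 pairs). Gnl3l stood out, with a negative r to 27 of the other 41 genes, and Rrp7a and Rrp1 had 16 and 15 negative partners. These correlations describe arrays that share their labelling and normalisation, and they carry no test.

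**Figure D3:**
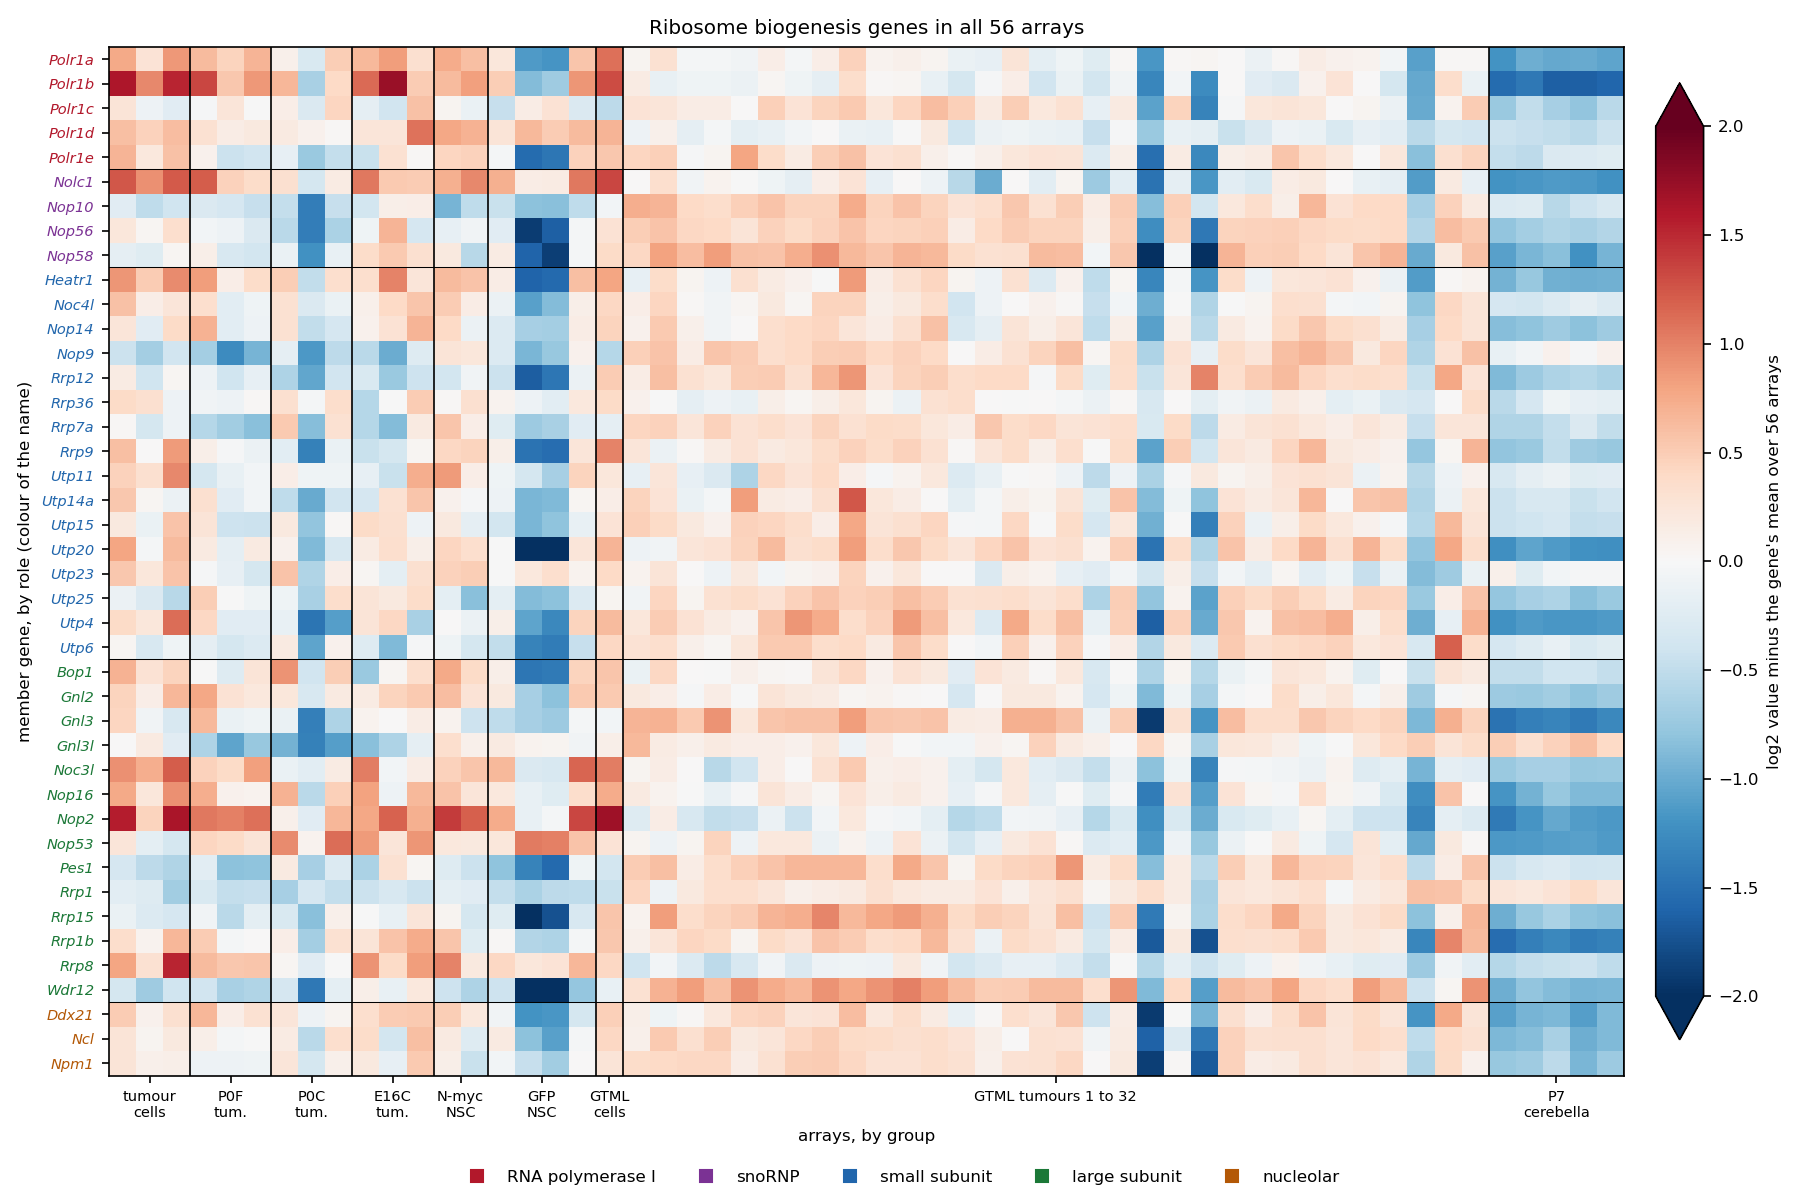
Heat map of the 42 genes (down, grouped by role and coloured by it) in all 56 arrays (across, by group), as log2 value minus the gene's own mean over the 56 arrays, with the colour scale ending at 2 on either side. The 5 P7 cerebella, GTML tumours 20, 22 and 30, P0C tumour 2 and the 2 P0C GFP NSC arrays show as blue columns.

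Correlations with Mki67 across the tumours passed for 6 of the 42 genes, 4 of the 16 small subunit genes and 2 of the 3 nucleolar proteins, and for none once a pair of tumours was left out. In the 28 tumours Mki67 ran from 8.53 to 10.15. Its r was above 0 for 40 of 42 ribosome genes (median 0.406, against -0.016 over all genes), and the 6 passed the permutation test at an adjusted p under 0.05, where 3.23% of 11347 genes passed with a positive r. They were Ddx21 (r = 0.655, adjusted p = 0.0169; rho = 0.505, adjusted p = 0.117), Heatr1 (r = 0.654, adjusted p = 0.0185; rho = 0.475, adjusted p = 0.147), Rrp12 (r = 0.647, adjusted p = 0.0256; rho = 0.442, adjusted p = 0.182), Utp25 (r = 0.635), Ncl (r = 0.594) and the X-linked Utp14a (r = 0.575). With Spearman's rho none of the 42 passed, where 1.13% of all genes did. When the 2 tumours with Mki67 farthest from its median were left out, r was 0.366 for Ddx21, 0.291 for Heatr1, 0.235 for Rrp12, 0.388 for Utp25, 0.520 for Ncl and 0.267 for Utp14a. None of the 42 then passed, where 0.274% of all genes did, and their median r was 0.072. The 6 calls were thus not kept without those 2 tumours, and Ncl had the smallest drop in r among the 6. Leaving them out also narrows the range of Mki67, and calls fell over the whole table. After quantile normalisation 3 of the 6 passed, and Utp25, Ncl and Utp14a did not (r = 0.595, 0.551 and 0.547). Rrp7a had r = -0.336 (adjusted p = 0.25) and Gnl3l r = -0.107 (adjusted p = 0.760). Of the polymerase I subunits, r with Mki67 was 0.453 for Polr1a, 0.302 for Polr1b, 0.086 for Polr1c, 0.113 for Polr1d and 0.352 for Polr1e, none called. Permutation tests here were two-sided with 100000 permutations over 28 tumours, and p-values were adjusted over the 11347 genes.

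The mouse Mycn probe ran the other way. In the 28 tumours it lay between 7.90 and 9.59, and r was below 0 for 38 of 42 ribosome genes (median -0.341). In the permutation test 5 passed with a negative r, where 1.43% of all genes did (1.45% with a positive one). They were Nop14, a small subunit factor (r = -0.637, adjusted p = 0.0344; rho = -0.754, adjusted p = 0.0175), Polr1a (r = -0.604, adjusted p = 0.0399; rho = -0.641, adjusted p = 0.0257), Utp4 (r = -0.592, adjusted p = 0.0406; rho = -0.685, adjusted p = 0.0200), Heatr1 (r = -0.589, adjusted p = 0.0471; rho = -0.638, adjusted p = 0.0308) and Bop1 (r = -0.580, adjusted p = 0.0471; rho = -0.557, adjusted p = 0.0617). With arrays centred on their medians only Nop14 of the 42 passed in the permutation test (r = -0.603, adjusted p = 0.0423), where 0.793% of all genes did. Centred, r was -0.474 for Polr1a, -0.579 for Utp4, -0.527 for Heatr1 and -0.513 for Bop1, with adjusted p = 0.130, 0.0512, 0.0859 and 0.0935 in the permutation test. Polr1a also missed the threshold after quantile normalisation (r = -0.560, adjusted p = 0.0510). When the 2 tumours with Mycn farthest from its median were left out, r was -0.630, -0.581, -0.674, -0.563 and -0.452 in that order of genes, while no gene of the whole table passed. With Spearman's rho 6 of the 42 passed with a negative sign, where 1.74% of all genes did. Gnl3l had the highest r of the 42 (0.480, adjusted p = 0.119). Mki67 and Mycn themselves had r = -0.237 (adjusted p = 0.443).

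The 4 tumours set apart turned these relations round for Mycn. Their Mycn values lay between 6.61 and 7.06, below all 28, and their Mki67 values between 4.86 and 10.16. Over all 32 tumours 29 of 42 ribosome genes passed with a positive r to Mycn and none with a negative one, and 37 of 42 passed with a positive r to Mki67, where 27.8% and 29.7% of all genes passed. Polr1a then had r = 0.408 and Utp4 r = 0.580 with Mycn. The tumours fall into separate sets, so the values over 32 are no measure of a relation within either set.

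**Figure D4:**
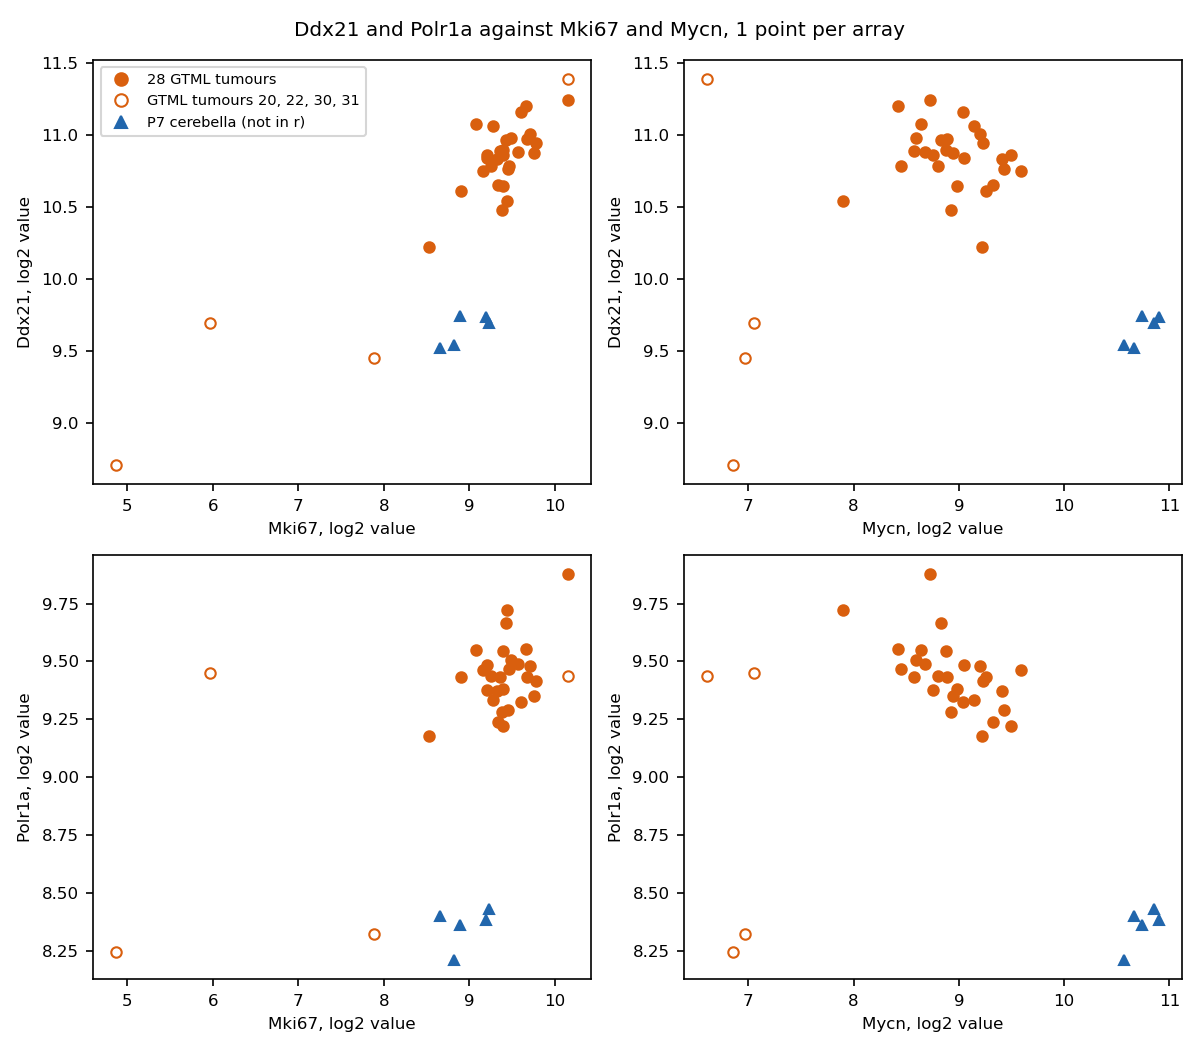
Log2 values of Ddx21 (top) and Polr1a (bottom) against Mki67 (left) and Mycn (right), 1 point per array, with the 28 GTML tumours as filled circles, GTML tumours 20, 22, 30 and 31 as open circles and P7 cerebella as triangles that did not enter r. In the 28 tumours r was 0.655 for Ddx21 with Mki67 and -0.604 for Polr1a with Mycn, and the open circles lie away from both clouds at low Mycn.

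The culture from a GTML tumour, a single array with no test, exceeded all 32 tumours for 12 of the 42 genes and was below all of them for none, where 16.1% of all genes exceeded all tumours. Nop2 stood at 10.79 in the culture, against 7.77 to 9.30 in the tumours. Nolc1 was at 11.64, against 8.83 to 10.64, Polr1b at 10.44, against 7.84 to 9.50, and Polr1a at 10.51, against 8.24 to 9.88. The others above all tumours were Noc3l, Polr1d, Rrp9, Nop16, Rrp8, Bop1, Gnl2 and Rrp36. Gnl3 was at 11.00 and lay inside the range of the tumours. Which labelling protocol this array had is not clear from the labels.

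In the transplant experiment the transduced gene was checked first. The Mycn probe averaged 9.21 ± 0.12 (SD, n = 2) in N-myc NSCs and 6.98 ± 0.61 (SD, n = 4) in GFP NSCs (difference 2.22, adjusted p = 0.0246 in limma, origin as covariate). It was the only gene called in that comparison, 0.00797% of the 12553 genes tested, and none was called lower.

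No ribosome gene was called between N-myc NSCs and GFP NSCs, and 13 of 42 had an unadjusted p under 0.05 in limma, as did 8.51% of all genes. The differences nevertheless leaned upward, with 40 of 42 above 0 and a median of 0.52, against -0.00 over all genes. The highest were Utp20 at 1.65 ± 0.52 (adjusted p = 0.552), Heatr1 at 1.18 ± 0.44 (adjusted p = 0.552), Bop1 at 1.17 ± 0.52 (adjusted p = 0.559), Rrp9, a protein of the U3 particle, at 1.12 ± 0.38 (adjusted p = 0.552) and Ddx21 at 1.07 ± 0.25 (adjusted p = 0.550), all in limma. In 11 of 42 genes both N-myc arrays exceeded all 4 GFP arrays, against 8.59% of all genes. The lowest was Nop53 at -0.55 ± 0.31. The median over the 42 genes was 0.93 without the E16C N-myc array, 0.17 without the P0C N-myc array and 0.26 without both P0C GFP arrays.

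The upward lean was seen in 1 of the 2 origins. In P0C cells the N-myc array was above the mean of the 2 GFP arrays for 39 of 42 genes (median 1.17). It was above that mean for 46.4% of all genes (median -0.07). At least 2-fold higher were 26 of 42, where 10.8% of all genes were. In E16C cells the N-myc array was above the GFP array for 17 of 42 (median -0.04), where 49.6% of all genes were. The differences ran from -0.60 for Noc3l to 0.56 for Ddx21. None reached 2-fold, where 1.76% of all genes did on the higher side. These differences come from single cultures, and neither they nor the contrast between origins was tested.

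Heatr1 and Utp20 are given as examples because they had the widest gaps between P0C and E16C GFP NSCs among the 42. Heatr1 was at 9.66 in P0C and 9.59 in E16C N-myc NSCs, against 7.42 and 7.47 in the sorted and unsorted P0C, 9.63 in the E16C and 9.18 in the P0F GFP NSCs. Utp20 was at 9.53 in P0C and 9.43 in E16C N-myc NSCs, against 6.38 and 6.49 in P0C, 9.34 in E16C and 9.09 in P0F GFP NSCs. For both genes the 2 N-myc arrays were level with each other and with the E16C GFP array, and the P0C GFP arrays were low. Over the 42 genes the mean level was 10.25 in P0C and 10.04 in E16C N-myc NSCs, against 9.14 and 9.13 in P0C, 10.12 in E16C and 9.93 in P0F GFP NSCs. The mean of the P0C GFP arrays was below the E16C GFP array for 38 of 42 genes (median difference -0.92). Over the whole table it was below for 5476 of 11075 genes (median 0.01). The unsorted differed from the sorted array by a median of -0.00 over the 42 genes. The cell cycle list averaged 10.92 in P0C and 10.95 in E16C N-myc NSCs, against 9.91 and 9.99 in P0C, 10.76 in E16C and 11.05 in P0F GFP NSCs. The part of cell cycling in the low levels was not tested.

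**Figure D5:**
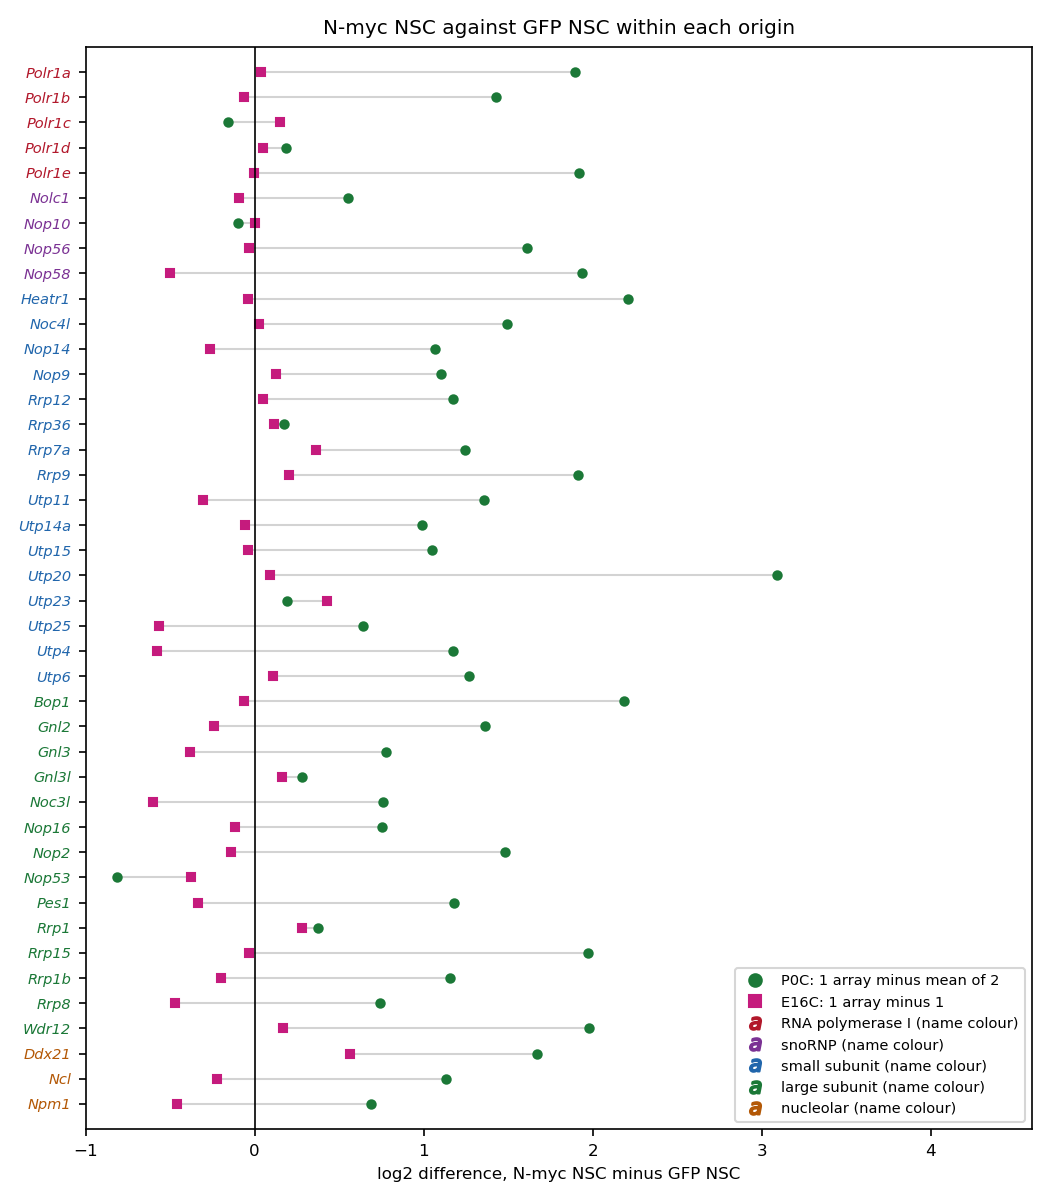
Log2 difference between N-myc NSCs and GFP NSCs for each of the 42 genes within P0C (circles, 1 array minus the mean of 2) and within E16C (squares, 1 array minus 1), with no error since the cultures have no replicate. The circles reach 3.09 for Utp20, while the squares stay between -0.60 and 0.56.

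In the 9 orthotopic tumours, 2 of the 42 genes rose and 1 fell relative to GFP NSCs, where 4.27% of 12121 genes rose and 7.35% fell, and the median was 0.30, against -0.05 over all genes. Ddx21 was 10.96, 11.14 and 11.15 in E16C tumours, 10.86, 10.53 and 10.68 in P0C tumours and 11.30, 10.76 and 10.93 in P0F tumours, against 10.27 in E16C, 9.43 and 9.47 in P0C and 10.56 in P0F GFP NSCs. In 8 of 9 tumours it exceeded every GFP array (difference 0.92 ± 0.17, adjusted p = 0.0038 in limma). Wdr12 was 1.01 ± 0.30 higher (adjusted p = 0.0425 in limma). Without the 2 P0C GFP arrays neither was called (adjusted p = 0.115 and 0.624 in limma), with differences of 0.59 and 0.31 and a median over the 42 genes of 0.03. The call on Wdr12 was also lost for 11 of the 18 arrays of the transplant fit left out in turn, E16C tumours 1, 2 and 3, P0C tumours 1 and 3 and P0F tumour 1 among them, with differences of 0.78 (unsorted P0C GFP NSCs) to 1.14 (E16C GFP NSCs). Within origins the median difference of tumours from GFP NSCs was 0.06 for E16C, 0.62 for P0C and 0.07 for P0F.

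The number of rising genes depended on the scaling and on single arrays. It was 8 after quantile normalisation and 7 with arrays centred on their medians, and both genes called here were among them. It was 5 without the E16C GFP array, 4 without the P0F GFP array, and 1 to 5 over all arrays left out in turn. Over all genes, those called higher numbered 518 in the main fit, 863 after quantile normalisation and 190 to 592 with arrays left out. Utp20 (1.07, adjusted p = 0.0648), Heatr1 (0.85, adjusted p = 0.0782), Rrp15 (0.83, adjusted p = 0.0641) and Polr1a (0.69, adjusted p = 0.0574) came next and missed the threshold in limma. Gnl3 was not called either (0.25 ± 0.25, adjusted p = 0.559 in limma), with 11.12, 11.07 and 11.20 in E16C, 10.93, 9.68 and 10.43 in P0C and 11.70, 10.92 and 10.97 in P0F tumours, against 11.01, 10.39, 10.32 and 10.55 in GFP NSCs. Of the same tumours, microglia markers were higher in 9 of 10 and endothelial markers in 6 of 7 cases (mean microglia levels 8.02 to 9.36 in tumours and 6.22 to 7.18 in GFP NSCs, mean endothelial levels 7.31 to 8.96 and 6.13 to 6.46). Their part in the ribosome gene differences was not tested.

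Gnl3l was the only member called in every comparison of orthotopic tumours with cultures of the transplant series. It stood at 9.34, 9.56 and 9.98 in E16C, 9.22, 8.82 and 9.07 in P0C and 9.55, 9.11 and 9.41 in P0F tumours, against 10.10 in E16C, 10.24 and 10.22 in P0C and 10.36 in P0F GFP NSCs. All 9 tumours were below all 4 GFP arrays (difference -0.92 ± 0.18, adjusted p = 0.00561 in limma). Without the 2 P0C GFP arrays the difference was -0.83 and was not called. Against the N-myc NSCs, at 10.51 in P0C and 10.27 in E16C, the tumours were 1.07 lower on the log2 scale (difference -1.07 ± 0.24, adjusted p = 0.0426 in limma), the only one of the 42 called there, where 0.653% of all genes were called higher and 0.51% lower. It was lost for 13 of the 18 arrays left out in turn, with differences of -1.30 (without the E16C N-myc array) to -0.83 (without the P0C N-myc array). In cultures of tumour cells Gnl3l was 10.17 in P0F, 10.34 in P0C and 9.94 in E16C, 0.81 ± 0.20 above the tumours (adjusted p = 0.0365 in limma), again the only member called, where 1.71% of all genes were called higher and 1.93% lower. That call was lost without P0C tumour 3 (0.79), the P0C tumour cells (0.64), the sorted P0C GFP array (0.81), P0F tumour 2 (0.77) or 3 (0.82), or the P0F tumour cells (0.82). These comparisons share the same tumour arrays, and the E16C tumour cells (9.94) lay below E16C tumour 3 (9.98). The culture from a GTML tumour had Gnl3l at 10.28, inside the range of the GTML tumours (median 10.30). Between the tumour cells and the tumours, microglia markers were lower in 9 of 10 and endothelial markers in 5 of 7 cases (mean microglia levels 6.45 to 6.48 in cells and 8.02 to 9.36 in tumours).

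None of the other ribosome genes was called between tumour cells and tumours. The median difference was 0.23, against 0.05 over all genes, and within origins it was 0.26 for E16C, 0.19 for P0C and 0.38 for P0F. In P0F, 40 of 42 genes were higher in the cells, where 57.5% of all genes were. Utp4 (0.88, adjusted p = 0.141) had a larger difference than Gnl3l (0.81), though it was not called in limma. Rrp9 (0.76, adjusted p = 0.159) and Polr1e (0.75, adjusted p = 0.155) followed. Nop53, at -0.67 (adjusted p = 0.125), was the lowest, none of these called in limma. Between tumour cells and GFP NSCs none of the 42 was called in limma, where 0.0975% of all genes were called higher and 0.504% lower. There 21 of 42 had an unadjusted p under 0.05, as did 15.4% of all genes, and the median was 0.56, against -0.01 over all genes and 0.34 without the P0C GFP arrays. The largest differences there were Utp20 at 1.57, Heatr1 at 1.27 and Polr1b at 1.27. Between tumours and N-myc NSCs the median was -0.25, and it was -0.63 without the E16C and 0.16 without the P0C N-myc array.

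The origin of the transplanted cells gave no called difference among the 42 genes. For P0C against E16C tumours the median was -0.39, with 36 of 42 genes below 0, and none was called where 0.554% of all genes were called higher and 0.151% lower. An unadjusted p under 0.05 in limma was found for 11 of the 42, and for 14.4% of all genes. Polr1b was 9.80, 8.49 and 9.53 in P0C tumours, against 10.27, 10.87 and 9.65 in E16C tumours (difference -0.99 ± 0.41, adjusted p = 0.331 in limma). Nop56 was 11.46, 10.62 and 11.36 in P0C tumours, against 11.92, 12.68 and 11.66 in E16C tumours, with no overlap. The difference was -0.94 ± 0.31 (adjusted p = 0.231 in limma). Of all genes, 7.18% had no overlap on the higher side, and the share on the lower side is not given here. Nop58 differed by -0.90, Utp4 by -0.91 and Bop1 by 0.46. P0C tumour 2 was the lowest of its group in 40 of 42 genes, with a mean of 9.29 where tumours 1 and 3 had 10.02 and 9.94. Without P0C tumour 2 the median was -0.22. It was below the mean of tumours 1 and 3 for 41 of 42 genes, where 5828 of 11075 genes were. Its cell cycle list averaged 9.85, where the other P0C tumours had 10.38 and 10.33. Oligodendrocyte markers ran from 8.97 to 11.58 in P0C tumours and from 6.76 to 7.85 in E16C tumours.

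P0F tumours had a median of -0.17 against E16C tumours, and of -0.29 to -0.06 with arrays left out in turn. None of the 42 was called or at an unadjusted p under 0.05 in limma. Of all genes, 0.218% were called higher, 0.0587% lower and 11.8% had such a p. The widest differences were Wdr12 at -0.61 and Nop58 at -0.59, with intervals of 2 standard errors from -1.23 to 0.02 and from -1.19 to 0.01. Against P0C tumours the P0F tumours had a median of 0.25, and a median of 0.06 without P0C tumour 2. None was called in limma, where 0.739% of all genes were called higher and 0.445% lower. The unadjusted p was under 0.05 for 3 of the 42, a smaller share than over all genes, at 16.3%. Nop2 was 10.14, 10.10 and 10.19 in P0F tumours, against 9.20, 8.86 and 9.75 in P0C tumours, with no overlap. The difference was 0.87 ± 0.25 (adjusted p = 0.132 in limma), and 13.2% of all genes had no overlap on the higher side. Mki67 was 1.23 lower in both P0C and P0F than in E16C tumours on the log2 scale (adjusted p = 0.0310 and 0.0473 in limma; differences -1.23 and -1.23).

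Set against GTML tumours, with the labelling protocol changing along with the model, the 9 orthotopic tumours had 10 of 42 genes higher and 14 lower, where 27.4% of all genes were higher and 33.3% lower, and a median of -0.09. Of the higher genes 6 were among the 14 large subunit genes, which also held 6 lower ones, 3 among the 5 polymerase I subunits and 1 among the snoRNP genes. Called higher were Nop2 at 1.03 ± 0.13 (adjusted p = 4.51e-09), Polr1b at 0.89 ± 0.16 (adjusted p = 5.15e-06) and Polr1d and Polr1a at 0.47 each (all in limma). Called lower were Nop9 at -1.03 ± 0.12 (adjusted p = 1.59e-09), Gnl3l at -0.97 ± 0.09 (adjusted p = 5.38e-12), Wdr12 at -0.89 and Rrp12 at -0.81, again in limma. None of the 16 small subunit genes was higher and 6 were lower in this test (7 at an unadjusted p under 0.05, where 64.1% of all genes were). No member separated the 2 sets without overlap, and 1.9% of all genes did so on the higher side. Without GTML tumours 20, 22, 30 and 31, 22 of 42 were lower, while the genes called lower over the whole table went from 4001 to 4672. Gnl3l was lower than in the GTML tumours in either case.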

How the data were processed

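RNA of 56 mouse samples was measured on whole-transcript expression arrays, 1 array a sample. The deposited table holds log2 values that the authors made with RMA, per the submitters' processing notes, which also name mm9; earlier filters are not given in the sources. It has 17831 probes, values from 2.37 to 14.9, array medians from 7.86 to 8.25 and 3.12% blank cells, none of them in the 42 genes. Array data carry no read depth, and the number of arrays limits precision. Of the probes, 15620 have 1 gene symbol in the supplied annotation, 1370 several and 841 none, and those without exactly 1 were left out.

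From these values limma 3.58.1 in R 4.3.3 (lmFit, eBayes) was fitted over all genes above the 25th percentile (6.3) in a number of arrays no smaller than the smaller group, with Benjamini-Hochberg adjustment. GTML tumours and P7 cerebella formed a fit of their own, the 18 arrays of the transplant series another with origin as covariate, the 9 orthotopic tumours another, and orthotopic with GTML tumours the last. Comparisons within the transplant series share arrays. Correlations used 100000 permutations in Python 3.11.15 with numpy 2.4.6, and scipy 1.17.1, pandas 2.3.3 and matplotlib 3.10.9 served the rest. Tested on simulated data with 200 changed genes, the GTML comparison recovered 87% of changes of 1 log2 unit (12276 genes), the orthotopic tumour and GFP NSC comparison 51% (12179 genes) and the N-myc and GFP NSC comparison 34% (12657 genes).

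The 42 genes, the pathway and marker lists and the tests were chosen with earlier results of these data known. Named in each comparison are chiefly the 5 genes with the highest and the 5 with the lowest difference or correlation and 16 standing genes (Polr1a to Polr1e, Ncl, Npm1, Nolc1, Gnl3, Pes1, Bop1, Wdr12, Nop56, Nop58, Ddx21 and Heatr1), and of each list outside the 42 up to 2 at either end; others were named after their values were seen. The lists are polymerase I machinery, polymerase III, further snoRNP, small and large subunit factors, exosome, MYC-target metabolism, cell cycle, and markers of mature neurons, astrocytes, oligodendrocytes, microglia, endothelium, this tumour model and cerebellum. Alternatives were other filters, quantile normalisation, median centring, probes of a gene averaged, filled blanks, trend and robust eBayes, a replicate block, each array left out, and groups of arrays left out. Leaving out the P0C GFP arrays was chosen after seeing the data.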

Additional observations from a re-analysis of the deposited data

Results flagged for a closer look

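In the P7 cerebella, 2 of the 42 genes had 1 array far above the other 4. Heatr1 was 8.27 in P7 cerebellum 2, where the others lay between 8.06 and 8.09, and Rrp9 was 9.10 in P7 cerebellum 3, where the others lay between 8.81 and 8.89. Chance alone marks about 1 in 20 such groups.

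For 26 of the 42 genes, and 12 of the 16 standing ones, the N-myc array differed from GFP NSCs in opposite directions in E16C and in both P0C comparisons. The share over all genes was not counted, so the count cannot be set against it. Some of the E16C differences were close to 0, as for Polr1e at -0.003. The difference between origins was not tested, since each rests on single cultures. The E16C and P0C differences were -0.062 and 2.188 for Bop1, -0.038 and 2.209 for Heatr1, -0.033 and 1.611 for Nop56 and -0.062 and 1.429 for Polr1b. They were -0.003 and 1.921 for Polr1e, -0.503 and 1.937 for Nop58, -0.337 and 1.18 for Pes1 and -0.22 and 1.13 for Ncl. For Gnl3 they were -0.38 and 0.777, for Npm1 -0.459 and 0.691 and for Nolc1 -0.092 and 0.55. Polr1c alone among these had the other order, with 0.149 in E16C and -0.158 in P0C.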

How the results depend on the processing

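The count of higher genes between GTML tumours and P7 cerebella stayed within 1.5 times of 36 under all alternatives run, and centring moved the median of all genes to 0.25 and that of the 42 to 1.0. The lower count of 1 (Gnl3l) became 0 when centred and was 0 to 1 with arrays left out in turn. For orthotopic tumours and GFP NSCs, higher genes of the 42 numbered 8 after quantile normalisation, 7 when centred and 1 with sorted and unsorted arrays averaged. They numbered 0 without the P0C GFP arrays (0 lower) and 1 to 5 with arrays left out. The whole table had 518 in the main fit and 863 after quantile normalisation. It had 115 without the P0C GFP arrays and 190 to 592 with arrays left out. The N-myc to GFP median was 0.26 without the P0C GFP arrays and 0.17 to 0.93 with arrays left out. For tumour cells and tumours, higher genes of the 42 numbered 0 after quantile normalisation and 0 without P0F arrays. They numbered 2 without the P0C GFP arrays and 0 to 2 with arrays left out. The whole table had 211 in the main fit, 12 without P0F arrays and 47 to 234 with arrays left out. For tumour cells and GFP NSCs, higher genes of the 42 numbered 1 when centred and 0 to 4 with arrays left out. The whole table had 12 in the main fit, 29 when centred and 1 to 71 with arrays left out. The median over the 42 was 0.34 without the P0C GFP arrays. For tumours and N-myc NSCs the lower count was 0 after quantile normalisation, centring or averaging, or without the P0F or the P0C GFP arrays, and 0 to 1 with arrays left out, with medians from -0.63 to 0.16. The P0F to P0C median ran from 0.06 to 0.36. Without GTML tumours 20, 22, 30 and 31, 22 of the 42 were lower in orthotopic than in GTML tumours. Over the whole table, lower genes then went from 4001 to 4672. The cause of these changes was not tested.

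The replicate numbers do not pair the samples (r of deviations -0.19 to 0.20). The block keeps shared numbers only, hence fewer GTML tumours (1 to 5 against P7 cerebella, 1 to 3 against orthotopic tumours). With replicate number as a block, 0 genes were lower in GTML tumours than P7 cerebella, and 3 were higher and 9 lower in orthotopic than GTML tumours.

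Positive calls with Mki67 numbered 3 after quantile normalisation (2.02% of all genes), 0 by Spearman's rho (1.13%) and 0 without the 2 farthest tumours (0.274%). Over all 32 tumours they numbered 37 (29.7% of all genes), 14 by rho (9.38%) and 32 over all but the 2 farthest (14.3%). Negative calls with Mycn numbered 1 when centred (0.793% of all genes) and 0 without the 2 farthest, where no gene passed. They numbered 0 over all 32 by r (16.3%) or rho (0.733%) or without their 2 farthest (11.4%). Positive calls with Mycn numbered 29 over all 32 by r (27.8%) and 20 without their 2 farthest (20.1%). Over all 32, r with Mycn was 0.28 for Bop1, 0.488 for Heatr1, 0.318 for Nop14, 0.408 for Polr1a and 0.58 for Utp4, and without the 2 farthest 0.247, 0.414, 0.223, 0.248 and 0.415 in that order.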
